A study of Mus musculus with 66 samples.

Results

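The levels of 9 genes of skeletal muscle fibres were followed across the dissected sections of the mouse colon and anus. They were Acta1, Tnnt3, Tnni2, Tnnc2, Mylpf, Myh1, Myh4, Ckm and Pvalb, and each was found under a single gene identifier, so 9 of the 30452 genes of the table are described. They were picked by name, with earlier results of these samples in view, as genes that mark skeletal muscle and are high in the anal section. Their higher level in the anus is therefore a description of how they were chosen, and it carries no test here.

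Bulk RNA sequencing was done on 66 samples of 19 wild-type C57Bl/6 mice, which were 6 weeks old when purchased. Dextran sulfate sodium (DSS), which injures the colonic mucosa, was given at 3% for 6 days from day 0, so the mice of day 3 were still on it. The mice were killed uninjured at day 0 (4 mice) or at day 3, 6, 9, 14 or 20 (3 mice a day). Mid-colon, rectum and anus were taken from all 19 mice, and a squamous neo-epithelium from the 9 mice of days 9, 14 and 20. No transgene or altered allele is named in the labels. By the series description, muscle was trimmed off and thrown away in every section before RNA was prepared, while the sample labels speak of mucosal surfaces cut from full-thickness tissue. The labels do not say how much of the sphincter a piece held, and give no batch. Within a section each sample comes from a different mouse. Read depth is not given by the files, so no counting error is attached to the levels. A sample had between 11268 and 13789 genes at 1 TPM or more, and mitochondrial genes held between 6.26% and 28.5% of its TPM. In the members, 2 rectal samples stand apart, that of mouse 13 at day 9 and, less so, that of mouse 1 at day 0, and results that rest on the rectum of mouse 13 are given with and without it.

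The external anal sphincter is a ring of striated muscle around the anal canal, next to the smooth muscle of the internal sphincter. In a striated fibre, myosin heavy chains pull on thin filaments of skeletal actin, and the troponin complex (the calcium sensor troponin C, the inhibitor troponin I and the tropomyosin-binding troponin T) lets them do so when calcium rises. Fast and slow fibres use different genes for most of these parts, and fast fibres are further divided by their heavy chain: Myh2 (type IIa), Myh1 (type IIx) or Myh4 (type IIb). Myh8 encodes the perinatal heavy chain, which most body muscles replace after birth and some specialised muscles keep.

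The results turn on 3 neighbouring heavy chain genes, so their sequences are shown first. In GRCm38 (mm10), Myh1 lies on the plus strand of chromosome 11 at chr11:67200052-67224575, Myh4 at chr11:67238029-67260446 and Myh8 at chr11:67277124-67308634. The other members lie apart from this cluster: Acta1 at chr8:123891769-123894751, Ckm at chr7:19404776-19422841, Mylpf at chr7:127208890-127214298 and Pvalb at chr15:78191114-78206400. Tnnc2 lies at chr2:164777161-164779967, and Tnni2 (chr7:142441808-142444410) and Tnnt3 (chr7:142498836-142516009) are neighbours on chromosome 7. Tnnc2, Acta1 and Pvalb are on the minus strand. The heavy chain coding sequences are alike: in GENCODE M21, Myh1 and Myh8 share 89.3% of 5805 aligned coding bases, and Myh1 and Myh4 share 90.2% of 5817. The lines below give 1 window of 75 bases, the read length of the libraries, from the coding sequence of the most abundant transcript of each gene, exonic and outside the untranslated regions. It starts at coding base 214 of Myh1 and Myh4 and at base 220 of Myh8. Capitals mark bases that differ from Myh1, 6 in Myh4 and 7 in Myh8, and 7 is also the median over 5552 windows between Myh1 and Myh8.
Myh1: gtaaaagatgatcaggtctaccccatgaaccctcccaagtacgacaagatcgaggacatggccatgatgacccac
Myh4: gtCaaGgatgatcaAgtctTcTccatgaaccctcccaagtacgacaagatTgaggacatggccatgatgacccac
Myh8: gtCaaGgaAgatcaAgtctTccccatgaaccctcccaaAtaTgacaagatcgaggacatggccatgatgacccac

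Some windows cannot tell the genes apart. Of the 75-base windows of the main Myh1 transcript, 16.8% occur unchanged in a transcript of another gene, against 9.68% for Myh4 and 12.9% for Myh8. The most windows that Myh1 shares are with Myh2. None of the windows of the main transcript of Tnnc2, Tnnt3, Tnni2, Mylpf, Ckm or Pvalb occurs in another gene, and 0.437% of those of Acta1 do. For Tnni2 that transcript is annotated as a retained intron and held 48.6% of the TPM of the gene in the anus. For Tnnt3 it held 50.6%, and the other transcripts were not searched. Heavy chain levels therefore rest partly on how the quantifier divided shared reads.

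The promoters of these genes are shown because the 3 genes lie in 1 cluster and Myh4 was read so differently from Myh1 and Myh8 in the anal samples. The sequences are from RefSeq, build GRCm38.p6, plus strand, and end before the annotated gene. Capitals mark the longest stretch common to the promoters of Myh1, Myh2, Myh4 and Myh8, ttctaattatatcc, which was picked because all 4 hold it and is held by 4 of 32851 promoters (250 bases, both strands), 0.0122%. It begins 160 bases before the RefSeq start of Myh1, 158 before that of Myh4 and 54 before that of Myh8. The window of Myh1 covers chr11:67199852-67200051, that of Myh4 chr11:67237562-67237811 and that of Myh8 chr11:67276874-67277123. For Myh1 only 200 bases are printed, since the RefSeq start lies inside the annotated gene. Its distance to the start and its motif matches refer to the full 250 bases.
Myh1: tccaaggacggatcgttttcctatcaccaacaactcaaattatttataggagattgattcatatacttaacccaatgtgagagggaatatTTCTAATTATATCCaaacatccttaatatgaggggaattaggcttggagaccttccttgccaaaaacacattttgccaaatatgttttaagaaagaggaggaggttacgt
Myh4: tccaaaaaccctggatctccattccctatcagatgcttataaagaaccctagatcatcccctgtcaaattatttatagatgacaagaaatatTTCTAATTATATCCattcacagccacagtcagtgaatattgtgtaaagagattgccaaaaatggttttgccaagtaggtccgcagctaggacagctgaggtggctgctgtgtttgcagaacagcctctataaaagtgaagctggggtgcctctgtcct
Myh8: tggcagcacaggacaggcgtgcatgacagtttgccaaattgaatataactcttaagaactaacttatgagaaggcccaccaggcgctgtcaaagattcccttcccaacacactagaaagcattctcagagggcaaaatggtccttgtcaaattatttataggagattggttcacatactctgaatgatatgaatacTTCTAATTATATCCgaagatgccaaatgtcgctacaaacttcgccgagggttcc

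Besides this stretch, the E-box CANNTG, which myogenic factors such as MyoD bind, was matched 2 times in the 250 bases of Myh4, 1 time in those of Myh8 and not in those of Myh1, while 66.2% of all such windows hold it. The MEF2 box was matched 1 time in each of the 3, against 2.92% of all windows. These are letter matches only. Promoter entries were found for 7 of the 9 members, and Tnni2 and Tnnt3 had none.

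In the anal section 8 of the 9 genes were abundant in every mouse. The values are TPM, a measure of transcript level scaled by transcript length and to a fixed total per sample, so that genes can be compared. The regulatory light chain Mylpf was the most abundant in 17 of the 19 anal samples, with a lowest, median and highest level of 660, 2367 and 5018 TPM. Troponin I of fast muscle, Tnni2, ran from 280 TPM through 1382 to 3178, and troponin T of fast muscle, Tnnt3, from 289 through 1281 to 3659. Fast troponin C, Tnnc2, had 258, 1275 and 3311 TPM. Skeletal actin, Acta1, had 379, 1018 and 3680 TPM. Tnni2, Tnnt3, Tnnc2 and Acta1 changed places with one another from mouse to mouse, so their order did not hold beyond the spread, while the creatine kinase Ckm stood in sixth place in all 19 samples with 196, 606 and 2326 TPM. The heavy chain Myh1 (7.12, 156 and 875 TPM) and the calcium buffer Pvalb (33.9, 90.2 and 315 TPM) shared places 7 and 8, and Myh4 was last in every sample. Together the 9 genes held from 0.21% to 2.24% of all TPM in an anal sample, with a median of 0.892%. In pieces of tissue, fewer muscle fibres and less RNA per fibre cannot be told apart.

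Elsewhere in the gut these genes were at or near 0. Their summed level was between 9.72 and 20.1 TPM in mid-colon, 7.98 and 16.0 TPM in neo-epithelium, and 10.8 and 170 TPM in rectum, where the highest value was 43.9 TPM without mouse 13. For every member but Myh4, the lowest anal sample lay above the highest sample of each other section, from 4.93 times (Acta1, rectum) to 648 times (Tnnc2, neo-epithelium) where the other section was above 0. Without the rectum of mouse 13 the smallest of these ratios was 19.9 (Acta1, rectum). Tnnc2 stayed under 1 TPM in all 19 mid-colon and all 9 neo-epithelial samples and in 16 of the 19 rectal samples. What remained outside the anus was mostly Acta1 (median 7.19 TPM in mid-colon and 10.5 in rectum), Tnni2 (median 4.75 TPM in neo-epithelium) and Mylpf (medians between 1.93 and 2.59 TPM). Markers of squamous epithelium were in accord with the labels of the pieces: the sum of 12 such genes was between 12619 and 28683 TPM in anus and between 14810 and 32951 in neo-epithelium, and at most 25.3 TPM in mid-colon and 994 TPM in rectum. Not every squamous gene was alike in both: Krt10, a keratin of cornifying epidermis, had a median of 27.3 TPM (4.13 to 176) in neo-epithelium and 1353 TPM (630 to 2611) in anus, while Krt13 had medians of 8075 and 5276 TPM. Colonocyte genes were present in these pieces too. The sum of 12 of them was between 39.4 and 11165 TPM in neo-epithelium and between 45.3 and 6854 in anus. In rectum it was between 12459 and 33686 TPM. Among anal samples it was between 1699 and 5182 TPM at day 0 and between 45.3 and 117 at day 6. In each of the 9 mice all 9 members were lower in the neo-epithelium than in the anus of the same animal.

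**Figure D1:**
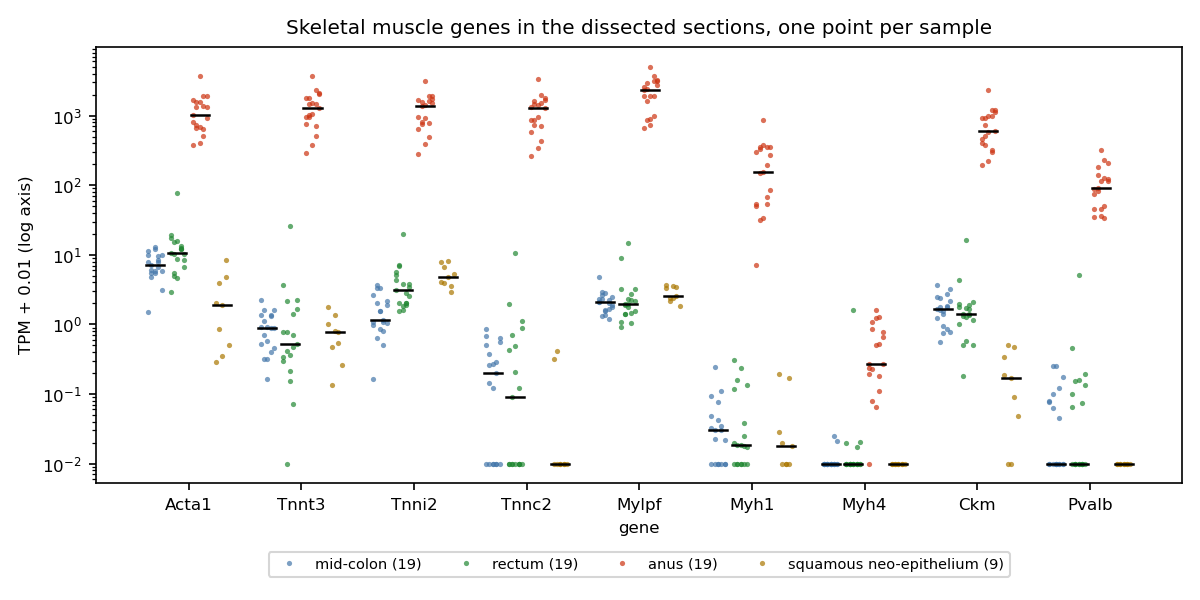
Level of each gene (TPM + 0.01, log axis) in every sample of mid-colon, rectum, anus and squamous neo-epithelium, with a bar at the median of each section. For 8 of the 9 genes the 19 anal samples lie above all other samples, while Myh4 stays under 2 TPM everywhere, and 1 rectal sample stands above the rest.

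Myh4 was the exception. In the 4 uninjured anal samples it was listed at 0, 0.069, 1.21 and 0.519 TPM, next to 7.12, 31.6, 875 and 198 TPM of Myh1 in the same mice. Over all 19 anal samples it did not pass 1.62 TPM and made up at most 0.208% of the summed TPM of Myh1, Myh2, Myh4 and Myh8. Myh1 made up between 42.8% and 55.3% of that sum, and Myh8, the perinatal chain, between 42.3% and 53.1%. Myh8 followed Myh1 closely in each mouse, with a ratio between 0.772 and 1.24 while Myh1 itself ranged 123-fold. Myh2 added between 1.79% and 7.34%. Other sarcomeric heavy chains were at or near 0 in the anus: embryonic Myh3 reached 0.0547 TPM, slow Myh7 0.123 TPM, Myh13 of extraocular muscle 0.494 TPM and atrial Myh6 0.0293 TPM. Thus 2 genes made up nearly all of the TPM of these sarcomeric heavy chains in the anal samples, at about equal levels. The smooth muscle heavy chain Myh11 is not among them. It ran from 1.30 to 188 TPM in the anus, and in mouse 17 it stood at 188 TPM beside 151 TPM of Myh1.

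One rectal sample showed a different heavy chain make-up. In the rectum of mouse 13, at day 9, the 9 members summed to 170 TPM, the highest value of the 19 rectal samples. In that sample Acta1 was at 76.9 TPM, Tnnt3 at 25.5, Tnni2 at 20.0, Ckm at 16.1, Mylpf at 14.5, Tnnc2 at 10.6 and Pvalb at 5.06 TPM. Each of these 7 was above all other 18 rectal samples. Myh4 was at 1.60 TPM and Myh1 at only 0.226 TPM, so Myh4 made up 80.6% of the 4 heavy chains there, and Myh8 2.96%. These shares rest on low levels, at a read depth that is not given. Myh1 and Myh8 lay within the range of the other 18 rectal samples, which reached 0.295 TPM for each, while Myh4 reached 0.0105 TPM in those. The ratio of Myh4 to Myh1 was 7.09 in this sample and at most 0.00449 in the anal samples, including the anus of the same mouse (0.00423). Pvalb stood at 0.480 of Tnnc2 there and between 0.0475 and 0.135 of it in the anal samples. The slow light chain Myl3, at 629 TPM (median) in the anus, was at 0.0901 TPM in this rectal sample, and the perinatal Myh8 at 0.0588. Smooth muscle actin Acta2 was at 395 TPM, above the other rectal samples, which reached 355. Uninjured mouse 1 had the second highest rectal value of 6 members, with Acta1 at 19.0, Mylpf at 9.02, Ckm at 4.30, Tnnt3 at 3.71, Tnnc2 at 1.96 and Pvalb at 0.449 TPM. Its Myh1 was the highest of the 19 rectal samples, and Myh1 and Myh8 stood at 0.295 TPM each.

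**Figure D2:**
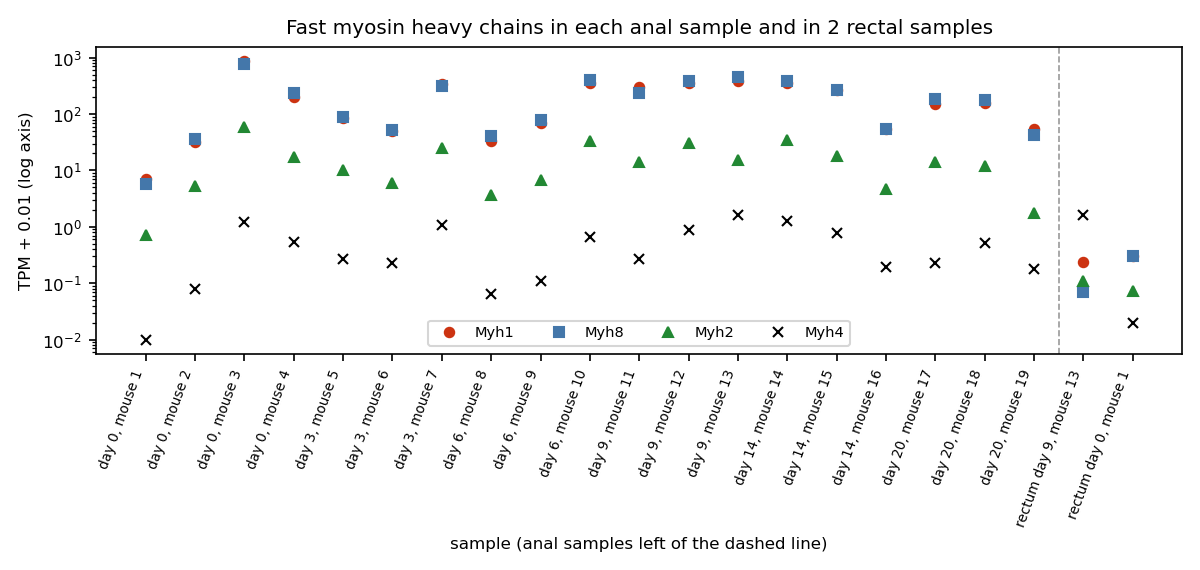
Level (TPM + 0.01, log axis) of the heavy chains Myh1, Myh8, Myh2 and Myh4 in the 19 anal samples, left of the dashed line, and in the rectal samples of mouse 13 at day 9 and mouse 1 at day 0. Myh1 and Myh8 coincide and Myh4 is lowest in every anal sample, while Myh4 is highest in the rectal sample of mouse 13.

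Slow fibre genes differed among themselves. Slow troponin T, Tnnt1, ran from 16.1 to 70.3 TPM in the anus, slow troponin I, Tnni1, from 15.6 to 84.2, and slow or cardiac troponin C, Tnnc1, from 4.17 to 39.5. Within a sample the fast gene exceeded its slow partner in all 19 anal samples, by a median of 5.08 for troponin T, 4.75 for troponin I and 6.58 for troponin C, as differences in log2 TPM. Those differences were smallest in mouse 1, where Tnnc2 was lowest. Tnni1 and Tpm3 were also found outside the anus, where the fast genes were at or near 0. Tnni1 had medians of 206 TPM in mid-colon and 144 in rectum (19 samples each), against 40.5 in anus. Tpm3 had medians of 189, 210 and 317 TPM in mid-colon, rectum and neo-epithelium, against 152.5 in anus. The part of muscle fibres in their anal level was not tested. From mouse to mouse, around the day means, the change in log2 level per unit of Tnnc2 was -0.04 for Tnnc1, -0.01 for Tnni1, 0.06 for Tpm3 and 0.20 for Tnnt1. It was 0.39 for Myoz2, 0.55 for Csrp3 (64.6 to 338 TPM) and 0.83 for Myl3 (139 to 1564 TPM), so some genes of the slow fibre list rose and fell with Tnnc2 and others did not.

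Across mice the anal level varied more than for most genes. At day 0, before any DSS, Tnnc2 was at 258, 732, 3311 and 1509 TPM in mice 1 to 4, a mean of 1453 ± 1342 (SD, n = 4). Mouse 3 was the highest and mouse 1 the lowest of all 19 mice, so the uninjured group spanned the whole range of the study. The sum of the 9 genes in those mice was 2103, 5209, 22364 and 10379 TPM. Around the means of the days, the SD between mice of log2(TPM + 1) was 1.01 for Tnnc2, 0.983 for Tnnt3, 0.941 for Tnni2, 0.868 for Acta1, 0.991 for Ckm, 0.967 for Pvalb, 0.760 for Mylpf and 1.79 for Myh1. The median gene of 13660 with a mean of at least 1 TPM in the anus had 0.286. Tnnc2 stood at the 97.0th percentile of those genes, Mylpf at the 94.1st and Myh1 at the 99.4th. The 8 genes moved together from mouse to mouse: over the 28 pairs, the correlation of their deviations from the day means was between 0.794 and 0.992 (19 samples that share library and piece of tissue).

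The range differed with the length of the transcript. Of the genes in the muscle lists, 58 had a mean of at least 10 TPM in the anus. The change in their log2 level per unit of Tnnc2, taken around the day means, had a median of 0.835 for the 19 genes under 1000 bases, 0.902 for 18 between 1000 and 2000, 1.14 for 15 between 2000 and 4000, and 1.43 for the 5 of 4000 bases or more (length is the mean over the transcripts of a gene, weighted by level, and Tnnc2 is left out). Myh1 had 1.72, Myh8 1.78 and the M-band protein Myom1 1.34, against 0.689 for Mylpf and 0.895 for Pvalb. Across these 57 genes, which share the 19 libraries, Spearman's rho with length was 0.637. Length and kind of gene are mixed here. The class under 1000 bases includes the slow genes Tnnc1 (-0.04), Tnni1 (-0.01) and Tnnt1 (0.20). The class of 4000 bases or more includes Myh1, Myh2 and Myh8, which share windows. The part of the kind of gene was not tested. A measure of the same libraries without muscle genes, the median log2 level of 251 genes over 5000 bases minus that of 2534 genes under 1500, ran from -1.85 to -1.24. It was -1.77 in mouse 1, with the lowest Tnnc2, and -1.42 in mouse 3, with the highest. The part of RNA length or quality in the range of the heavy chains was not tested.

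Over the days of DSS and recovery none of the members passed the test. Tnnc2 was at 1275, 854 and 1453 TPM in the mice of day 3, at 339, 709 and 1811 at day 6, and at 1328, 1609 and 1426 at day 9. It was at 1959, 1682 and 591 TPM at day 14 and at 852, 966 and 436 at day 20. All of these lie between the lowest and the highest uninjured mouse. On the log2(TPM + 1) scale Tnnc2 differed from day 0 by 0.24 ± 0.73 (SE), -0.38 ± 0.84, 0.56 ± 0.71, 0.34 ± 0.81 and -0.47 ± 0.76 on days 3, 6, 9, 14 and 20. The limma adjusted p-values, in the same order, were 0.9999, 0.823, 0.748, 0.914 and 0.780. The 95% confidence intervals were wide, from -2.28 to 1.52 at day 6 and from -2.22 to 1.27 at day 20, so large changes either way were not detectable at this spread.

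Of the members, 8 could be tested on each day, since Myh4 did not reach 1 TPM in enough samples. The number called (Benjamini-Hochberg adjusted p under 0.05, limma) was 0 of 8 at day 3, where 0.044% of all genes tested were called, and 0 of 8 at day 6, where 15.0% were. It was 0 of 8 at day 9 (5.09% of all genes), 0 of 8 at day 14 (4.27%) and 0 of 8 at day 20 (1.46%). At each of the 5 days 0 of the 8 members had an unadjusted p under 0.05. The median difference over the 8 members was 0.24, -0.40, 0.55, 0.40 and -0.51 on days 3, 6, 9, 14 and 20, beside medians of all genes between 0.02 and 0.10. The 5 comparisons share the 4 uninjured mice, so mouse 3 and mouse 1 enter each of them. Without mouse 3, Tnnc2 at day 9 came to 1.14, and without mouse 1 to -0.09, with adjusted p-values between 0.296 and 0.939 over the 7 fits that leave out 1 mouse.

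Myh1 at day 9 and Mylpf at day 20 had the largest differences relative to their SE. Myh1 was at 298, 353 and 382 TPM in the mice of day 9, a mean of 344 ± 42.3 (SD, n = 3), against 7.12 to 875 TPM uninjured, and differed by 2.06 ± 1.32 (SE), limma adjusted p 0.457. Mylpf was at 875, 901 and 988 TPM at day 20, where the mean was 921 ± 59.3 (SD, n = 3) against 2604 ± 1900 (n = 4) uninjured. Only mice 1 and 8 had less among the other 16, and its difference was -1.14 ± 0.59 (SE), limma adjusted p 0.347. In the 2 mice of day 20 with the most Tnnc2, Mylpf was about level with Tnnc2 (log2 ratio -0.10 and 0.04). In mouse 19 of that day the log2 ratio was 1.18. The median over the 19 samples was 0.98.

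A test of any difference among the 6 days (limma F test, 19 samples) took in all 9 members and called 0 of them, where 24.5% of 14746 genes were called. Adjusted p-values ran from 0.192 (Mylpf) to 0.792 (Tnnc2), and 0 of 9 had an unadjusted p under 0.05. Without uninjured mouse 1, Mylpf alone was called, with 0.0351, and over the 19 fits that leave out 1 mouse the count was otherwise 0 (limma).

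**Figure D3:**
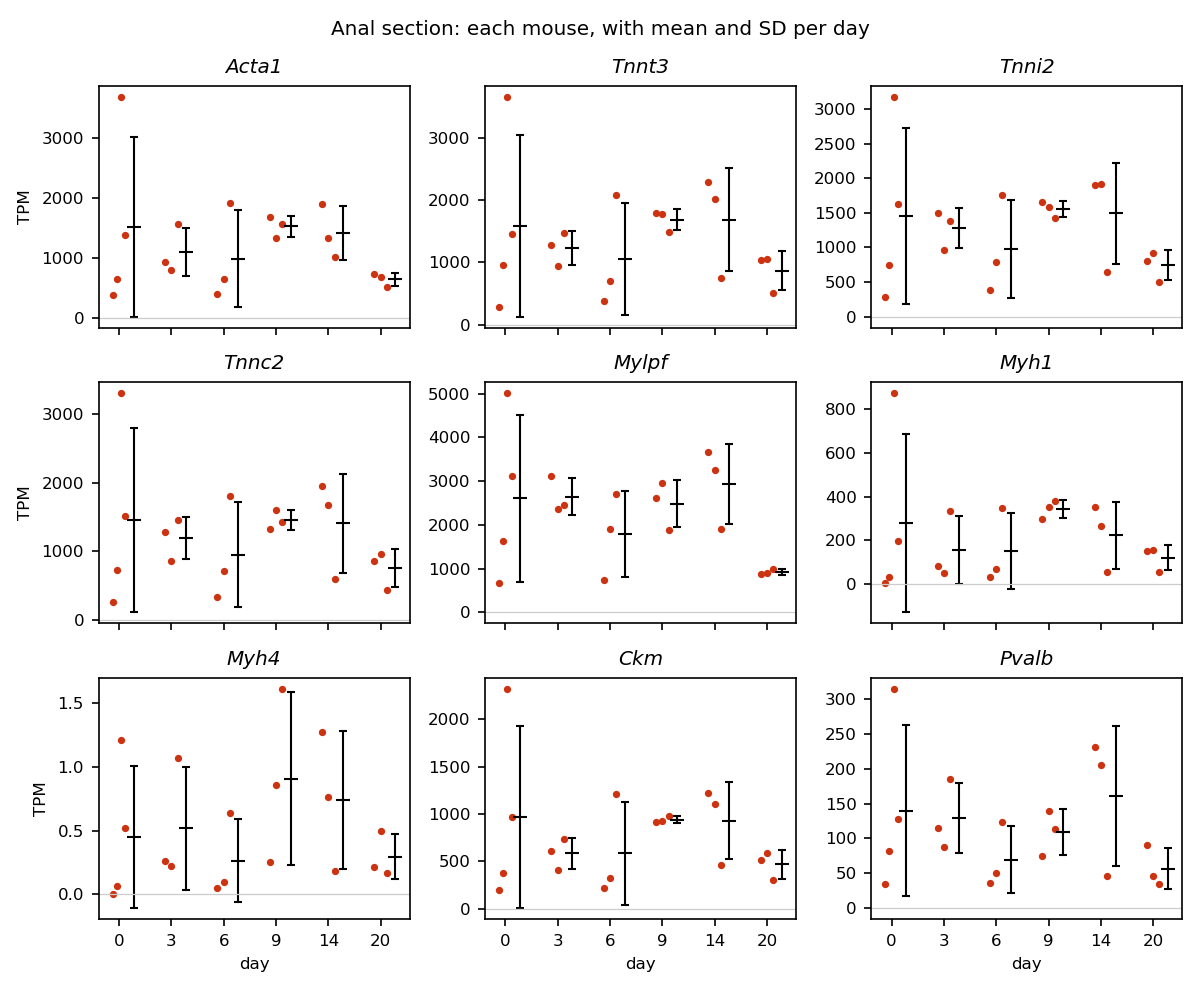
TPM of each gene in the anal section of every mouse (points) by day, with the mean and SD of the day (bars). For 8 of the 9 genes the highest of the 19 values belongs to uninjured mouse 3, and Myh4 stays under 2 TPM.

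**Figure D4:**
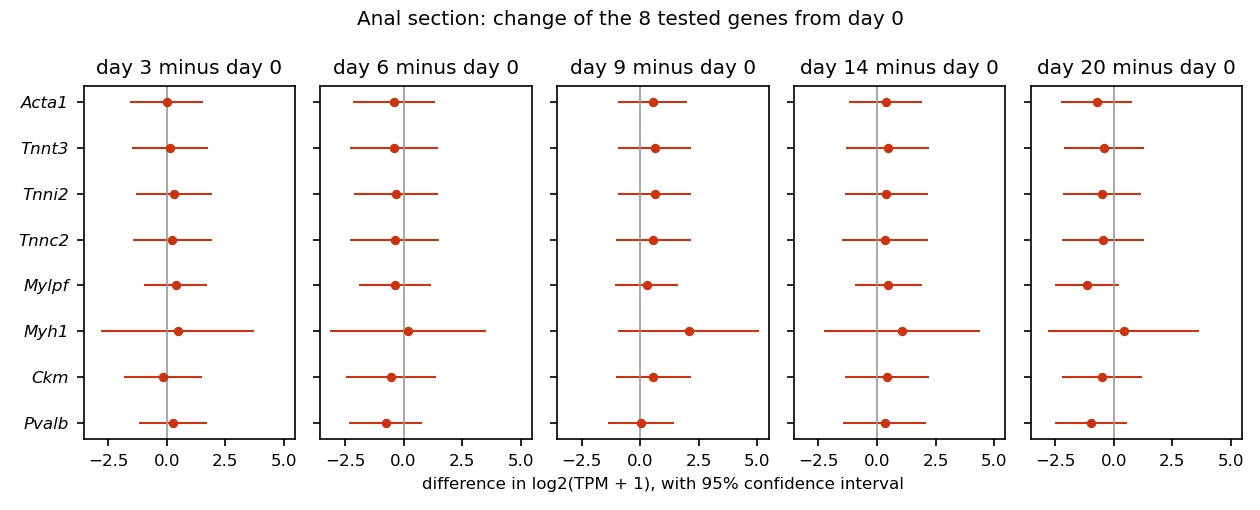
Difference in log2(TPM + 1) between each day and day 0 in the anal section for the 8 tested genes, with the 95% confidence interval from limma (3 mice a day against 4). Every interval includes 0.

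Other muscle genes were likewise rarely called. Lists of further sarcomere proteins, excitation and calcium handling, energy metabolism, slow fibre and immature muscle genes were taken from general knowledge with earlier results of these samples known. Of the 24 further sarcomere genes 0 were called on any day, and the same was true of the 16 genes of muscle energy metabolism, the 15 or 16 tested calcium handling genes and the 6 or 7 tested myogenic genes (limma). The share of all genes tested that was called ran from 0.044% at day 3 to 15.0% at day 6. At an unadjusted p under 0.05, at most 1 gene of each of these 4 lists passed on any 1 day. The spread was as wide as for the members. At day 3 the SE of the difference was 0.70 for Myl1, 0.70 for Tcap, 0.95 for Atp2a1, 0.59 for Sln and 0.73 for Mb. For Tnnc2 it was 0.73, so large changes were not detectable here either. The essential light chain Myl1 ran from 289 to 2962 TPM in the anus, the titin cap Tcap from 32.9 to 744, the calcium pump Atp2a1 from 24.2 to 649, its regulator Sln from 161 to 1490 and the oxygen store Mb from 124 to 1559. Some satellite cell and regeneration genes of the immature muscle list, named here after their values were seen, were low. Pax7 reached 0.129 TPM, Myod1 1.10, Myog 1.73 and the fetal acetylcholine receptor subunit Chrng 0.185. Others of that list were higher: Myf6, kept in mature fibres, had 1.75 to 19.8 TPM, Actc1 1.44 to 48.0 and Myh8 5.75 to 784. Actc1 differed from day 0 by 2.40 ± 0.79 (SE) at day 14 and was not called (limma adjusted p 0.156).

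In the slow fibre list 1 of 8 tested genes was called at day 6, where 15.0% of all genes tested were. The count was 1 of 8 at day 9 (5.09% of all genes) and 1 of 7 at day 14 (4.27%). The limma F test among days called 2 of 8, where 24.5% of all genes were called. These calls fell on 2 genes, Tnnc1 and Tpm3. Tnnc1 was at 7.05 ± 1.66 TPM (SD, n = 4) uninjured and 25.6 ± 12.1 (n = 3) at day 9, a difference of 1.66 ± 0.30 (SE), limma adjusted p 0.0165, and it was also called at day 14 with 0.92 ± 0.21 and adjusted p 0.0491. The call at day 14 was lost with TMM factors (adjusted p 0.139) and without any 1 of mice 2, 3, 4, 14, 15 and 16 (adjusted p up to 0.200), and that at day 9 without mouse 11 (adjusted p 0.0514). Tpm3, a tropomyosin also made outside muscle, was at 110 ± 18.7 TPM uninjured and 163 ± 9.04 at day 6, a difference of 0.58 ± 0.16 (SE), limma adjusted p 0.0425, a call that was lost without any 1 of mice 1, 2, 3, 8, 9 and 10 (adjusted p up to 0.147). Markers of other cell types moved on these days too. Of the 12 squamous genes 2 were called higher at day 9 (Dsg3 by 1.65 and Trp63 by 0.91) and 1 at day 14 (Dsg3 by 1.27). The median difference of the 12 was 0.35 at day 9 and 0.22 at day 14. Lor (-0.78), Ivl (-0.65), Krt10 (-0.62), Krt1 (-0.36) and Flg (-0.14) were lower at day 14 and not called. Of the 11 tested colonocyte genes 11 were called lower at day 9 and 7 at day 14. The part of these cell types in the change of Tnnc1 was not tested.

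The list of atrophy and stress genes had 5 of 13 called at day 6, 3 higher and 2 lower, where 15.0% of all genes tested were called. The activin antagonist Fst rose from 7.37 ± 1.93 TPM (n = 4) to 29.1 ± 7.46 (n = 3), limma adjusted p 0.00266, and the metallothioneins Mt2 (808 to 2672 TPM, adjusted p 0.000796) and Mt1 (723 to 1793 TPM, adjusted p 0.0142) rose as well. The ubiquitin ligase Fbxo32, known from muscle atrophy, fell from 12.4 ± 5.45 to 4.35 ± 1.40 TPM, limma adjusted p 0.0480, and the mitophagy receptor Bnip3 fell with a difference of -0.83 ± 0.18 (SE), adjusted p 0.0191. The calls of Mt1 and Bnip3 were lost without mouse 8 or mouse 10 (adjusted p up to 0.0619 and 0.0828), and that of Fbxo32 without any 1 of mice 2, 3, 4, 8, 9 and 10 (adjusted p up to 0.175). Most of these genes are made in many cell types, and markers of other cell types moved on the same day. Of the 12 squamous genes 4 were called higher at day 6 (Krt14, Trp63, Dsg3 and Krt6a) and 0 lower, with differences of -0.76 for Krt13 and -0.69 for Krt4 that were not called, and all 11 tested colonocyte genes were called lower. Their part in the result was not tested.

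In the neo-epithelium the comparison with rectum was open for 3 members only, since the rest were under 1 TPM in too many samples. Acta1 was at 0.279, 1.89 and 8.49 TPM (lowest, median and highest of 9) in neo-epithelium and at 2.86, 12.0 and 76.9 TPM in rectum of the same mice, and was lower in the neo-epithelium in 9 of 9 mice. It fell by 2.06 ± 0.53 (SE) on the log2(TPM + 1) scale, limma adjusted p 0.00436, so 1 of 3 tested members was called, where 42.9% of 13024 genes were. Without the rectal sample of mouse 13 the difference was -1.64 (adjusted p 0.00312), and at day 20 alone it was -0.60 (adjusted p 0.545). Tnni2 (medians 4.75 and 3.79 TPM) and Mylpf (2.59 and 2.16 TPM) did not pass the test, with differences of 0.02 ± 0.21 and 0.08 ± 0.29. Many smooth muscle genes were lower as well in the neo-epithelium, with 9 of 14 tested called lower and 0 higher. Among them were Myh11 (-1.53 ± 0.46, limma adjusted p 0.0120) and desmin, Des (-1.75 ± 0.46, adjusted p 0.00505). Tpm2 went the other way and was not called (0.61 ± 0.26, adjusted p 0.0697). Without the rectal sample of mouse 13, 9 smooth muscle genes were called, of which 8 were lower. Of the 14 tested genes of the further muscle lists, 10 were called, 7 lower and 3 higher. In the slow fibre list Tnni1 fell by 1.99 ± 0.28 and Tnnt1 by 1.13 ± 0.18. Those called higher were Ampd1 (1.80 ± 0.12), Ak1 (1.41 ± 0.16) and Casq2 (1.03 ± 0.28). Without the rectal sample of mouse 13, the differences of Myh11, Des, Tnni1 and Tnnt1 were -1.31, -1.55, -1.97 and -1.12, and limma called each of them. The part of smooth muscle in the difference of Acta1 was not tested.

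Genes most like the members were named by the correlation with the mean log2 level of the 9. Over all 66 samples and 12688 genes, the closest were Myoz1 (r = 0.998), Tcap, Atp2a1, Mybpc1, Mb, Myl1, Myl3, Itgb1bp2, Csrp3 and Casq1 (r = 0.991). Here the gap between anus and the other sections makes most of the correlation. Within the anus, around the day means (19 samples), they were Myoz1 (r = 0.991), Tmem38a, Cacng1, Pygm, Ldb3, Hrc, Mybpc1, Tbx15, Car3 and Myom1 (r = 0.987). Myoz1, a Z-disc protein, and Mybpc1, a myosin-binding protein, are in both sets.

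Single genes of other cell types were set against Tnnc2 in the 19 anal samples, 6 relations in all over which p-values were adjusted, and 5 of them are given. Adipoq, a hormone of fat cells, rose with Tnnc2 (Pearson r = 0.716, permutation p 0.0005, adjusted 0.0015, and Spearman rho = 0.647, permutation p 0.00373, adjusted 0.0112). Mouse 3 had the most of both, with 121 TPM of Adipoq, and mouse 1, with the least Tnnc2, had 2.01 TPM. As deviations from the day means, r was 0.894 (permutation p 0.00175, adjusted 0.00525). Without mouse 3 and mouse 1, the samples farthest from the median of Tnnc2, r was 0.631 with an adjusted permutation p of 0.0194, and rho was 0.544 with an adjusted permutation p of 0.0773.

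Another 4 relations did not pass the test. The smooth muscle heavy chain Myh11 (1.30 to 188 TPM) had r = 0.239 and rho = 0.188 (permutation p 0.325 and 0.441, adjusted 0.487 and 0.529). Mouse 17 had the highest Myh11, 188 TPM, with 852 TPM of Tnnc2, so the smooth and the striated muscle genes did not peak in the same piece. The squamous keratin Krt13 had r = -0.271 and rho = -0.228 (permutation p 0.261 and 0.345, adjusted 0.487 and 0.517), and Krt10 had r = -0.177 and rho = -0.230 (permutation p 0.468 and 0.342, adjusted 0.527 and 0.517). Slow Myh7, never above 0.123 TPM, had r = -0.155 and rho = -0.0281 (permutation p 0.527 and 0.908, adjusted 0.527 and 0.908). The summed adipocyte list ran from 33.6 to 1549 TPM in the anus and from 5.30 to 51.9 in rectum. The part of fat in the spread of the members was not tested.

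**Figure D5:**
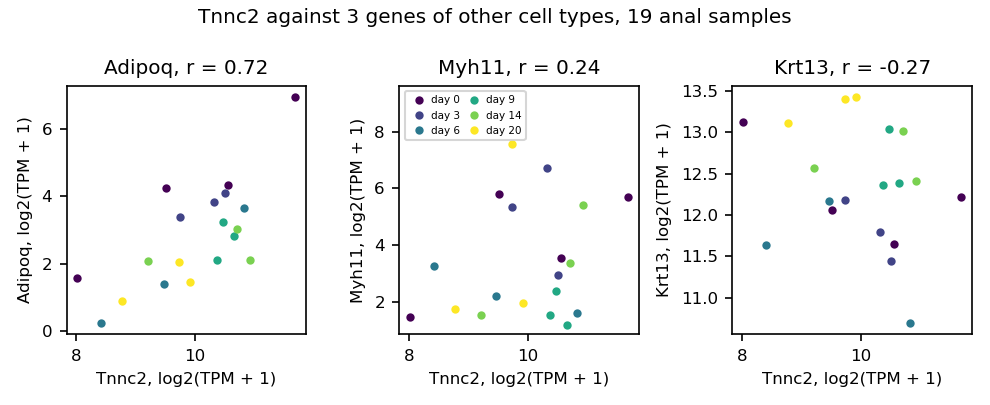
Level of Adipoq, Myh11 and Krt13 against that of Tnnc2, all as log2(TPM + 1), in the 19 anal samples, coloured by day. Adipoq rises with Tnnc2 (r = 0.72), while Myh11 and Krt13 show no relation that passed the test.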

How the data were processed

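Stranded mRNA libraries were read from a single end over 75 bp. The authors deposited 1 table of TPM per Ensembl transcript for the 66 samples, and the submitters' processing notes name CASAVA, kallisto and mm10, without versions. The deposited TPM table had 126860 rows, of which 37344 held no values. Of the rest, 1318 repeated another row and were dropped, which left 88198 transcripts that summed to 1000000 in each sample. Of these, 1284 had no gene identifier, held between 0.563% and 2.833% of a sample and stayed out, and the rest were summed to 30452 genes. TPM keeps no read depth, so precision rests on the spread between mice.

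Differences were tested with limma 3.58.1 (R 4.3.3) with a mean trend on log2(TPM + 1), over genes that reached 1 TPM in a number of samples no lower than the size of the smaller group, at a Benjamini-Hochberg adjusted p under 0.05. Each day was fitted with day 0 alone. Neo-epithelium and rectum of 9 mice were fitted with day as a covariate, and mouse as a replicate block was an alternative. The block comes from the same animals, whose rectum and neo-epithelium deviated together (mean r 0.271, from 0.0418 to 0.517). Alternatives were scaling by a trimmed mean of M-values (TMM factors, computed on the TPM), other pseudocounts and filters, all days in one fit, muscle genes taken out of the total, and each mouse left out. The fit was tested on simulated data before use. Relations used permutation tests with 100000 resamples in scipy 1.17.1, 2-sided, and 1 relation is not reported here. Coding sequences were aligned with mafft 7.526. Replicates are separate mice by the labels.

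The members and all gene lists were chosen with earlier results of these data known. Named genes were the 9 members, the 3 highest at day 0 and the called genes of each other list (at most 4 per comparison), the 10 genes closest to the members in each of 2 settings, and those of the relations and fibre ratios.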

Additional observations from a re-analysis of the deposited data

Results flagged for a closer look

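For each member, the rectal samples of day 0, those of days 9, 14 and 20 together, and other groups of 4 to 10 samples were searched for a highest or lowest sample far from the rest by Dixon's ratio, and 16 values were far in 42 groups of values. Chance gives about 1 in 20 for normally distributed values, a rate that need not hold for TPM with many values at 0. Where all other samples are at 0, any value above 0 is far. This was so at day 0 for Tnnc2, Myh4 and Pvalb in rectum and for Pvalb in mid-colon. The 16 fall on 3 samples, so they are not independent.

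In the rectum of mouse 13 at day 9, which stood far above the other rectal samples of days 9, 14 and 20, the levels were 10.6 TPM for Tnnc2, 25.5 for Tnnt3, 76.9 for Acta1, 16.1 for Ckm, 1.60 for Myh4, 0.226 for Myh1, 20.0 for Tnni2, 14.5 for Mylpf and 5.06 for Pvalb. In the rectum of uninjured mouse 1, 6 members were far from the other 3 uninjured rectal samples by this ratio. They were at 1.96 TPM for Tnnc2, 3.71 for Tnnt3, 0.00997 for Myh4, 5.18 for Tnni2, 9.02 for Mylpf and 0.449 for Pvalb. Pvalb was also far from the others in the mid-colon of uninjured mouse 4, at 0.111 TPM.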

How the results depend on the processing

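No member was called on any single day under any alternative run. The number of genes called at day 3 was 6, against 2 with TMM factors, 16 with all 19 anal samples in one fit, 3 with a filter at 5 TPM and 0 without a filter (limma). At day 6 it was 2060 against 3303 in one fit. At day 9 it was 692 against 1188 (TMM), 1551 (one fit) and 373 (no filter), at day 14 588 against 1175 (one fit) and 246 (no filter), and at day 20 201 against 313 (TMM), 1392 (one fit) and 59 (no filter). Leaving out 1 mouse gave 0 to 12, 876 to 2130, 315 to 827, 162 to 557 and 25 to 237 genes at days 3, 6, 9, 14 and 20. With TMM factors the split of higher and lower calls was 1139 and 1410 at day 6 (1186 and 874 as reported), 282 and 479 at day 14 (311 and 277), 178 and 135 at day 20 (150 and 51) and 3473 and 2731 in neo-epithelium against rectum (2721 and 2867).

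Signs of the members turned when 1 mouse was left out. Tnnc2 ran from -0.40 to 0.82 at day 3, -1.02 to 0.20 at day 6, -0.088 to 1.14 at day 9, -0.30 to 0.92 at day 14 and -1.12 to 0.11 at day 20. Mylpf ran from -0.16 to 0.81, -0.91 to 0.17, -0.27 to 0.71 and -0.054 to 0.92 at days 3, 6, 9 and 14, and Myh1 from -0.66 to 1.59, -0.92 to 1.33, -0.047 to 2.20 and -0.70 to 1.55 at days 3, 6, 14 and 20.

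For neo-epithelium against rectum, 3447, 2045 and 736 genes were called at days 9, 14 and 20 alone, against 5588 together, with fewer mice in each fit. Acta1 was called at day 9 alone (adjusted p 0.0333) and not at day 14 (0.0509) or day 20 (0.545), and was not tested at a filter of 5 TPM. Tnni2 turned to -0.28 at day 9 and -0.055 at day 20 alone, and Mylpf to -0.22 at day 9 alone. Leaving out 1 mouse, Tnni2 ran from -0.046 to 0.17, with a turned sign without mouse 11 (-0.032), 14 (-0.025), 15 (-0.046), 16 (-0.014), 18 (-0.012) or 19 (-0.0093). Mylpf ran from -0.055 to 0.31, with a turned sign without mouse 11 (-0.045) or 14 (-0.055), and without only the rectum of mouse 13, an alternative chosen after seeing the data, they were 0.19 and 0.35. With mouse as a replicate block 5885 genes were called, and the call of no member changed (Acta1 adjusted p 0.00555). The cause of these differences was not tested.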
